A study of Cyclotella cryptica with 27 samples.

Results

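The comparison described here set cells of the diatom Cyclotella cryptica taken 1 h after transfer to freshwater against cells kept in seawater. Its members were the samples labelled as freshwater for 1 h or as seawater control, 6 of the 27 samples in the series. Of their 6 count columns, 2 were used, replicate 2 at 1 h and replicate 1 of the seawater control, out of 16 independent columns in the series. All groups were strain CCMP332 at 15 °C. The seawater control was in artificial seawater of 24 ppt and is labelled with a time of 0 min. The 1 h group was in freshwater of 0 ppt for 1 h. The labels give every sample, the control included, the same text on transfer, in which cells were spun at 800 rcf for 3 min and resuspended in freshwater. They name no seawater sample taken at 1 h, so the effects of salinity, of handling and of the elapsed time cannot be told apart.

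The series followed the strain through 9 groups, the seawater control and 8 times in freshwater from 0 min to 10 h. RNA was sequenced and reads were counted per gene. At 1 h, 94.5% of the 4759 genes with at least 100 counts differed by the same 27 counts between replicates 1 and 2. In the seawater control, 99.9% of 5643 such genes differed by 7 counts between replicates 1 and 2. Replicate 3 followed replicate 1 with a slope of 0.981, but only 10.9% of these genes shared its most common difference, 9 counts. Control replicate 3 was taken as a scaled copy, which the slope alone does not show. The other 264 of the 4759 genes at 1 h differed by other amounts. Among them, and named below, are CCRYP_016753, CCRYP_010137, CCRYP_019860, CCRYP_014122, CCRYP_007283, CCRYP_000534, CCRYP_004609 and CCRYP_003544. Also among them and named below are CCRYP_005476, CCRYP_006727, CCRYP_014240, CCRYP_020355, CCRYP_010390 and CCRYP_010356. The deposited columns of each of these groups were therefore counted as 1 sample. Which column of a group is the original cannot be told from the counts. Nothing in them gives a spread for 1 h or for seawater. Each single column was assumed to vary like the columns of 15 min, 30 min, 2 h, 4 h, 8 h and 10 h, and the p-values measure only the spread between those columns, which may be technical.

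Freshwater is hypoosmotic for a marine diatom, so water tends to enter the cell and ions and small organic solutes tend to leave it. Diatom plastids harvest light with fucoxanthin-chlorophyll proteins, which bind pigments made by the tetrapyrrole and carotenoid pathways. Ribosomal proteins, translation factors and tRNA ligases make up the machinery of protein synthesis, and heat shock proteins fold proteins and hold them in solution.

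The control column held 3537770 gene counts and the 1 h column 2889888. Among 26 fucoxanthin-chlorophyll protein genes, which mark a diatom, 25 had at least 10 counts in the control and 21 at 1 h, and they took 1.08% and 0.552% of all gene counts. Levels are given as CPM, each gene's counts as a share of the library after scaling by the trimmed mean of M-values (TMM). They are not divided by gene length, so they compare samples and not genes. Each sample is a culture, so fewer cells of a type and less RNA per cell cannot be told apart. Reads mapped to several places amounted to 28.3% of the control reads in the table and 27.3% of those at 1 h and belong to no gene. Genes of near-identical families, such as antenna proteins, histones and ribosomal proteins, and genes that overlap or lie antisense to another are therefore uncertain.

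Of 12501 genes tested, 2300 differed between 1 h and the seawater control in edgeR's quasi-likelihood test (Benjamini-Hochberg adjusted p below 0.05), which is 18.4% of them. Higher levels at 1 h were called for 1224 genes (9.79%) and lower levels for 1076 (8.61%). The called genes that rose had a median log2 fold change of 1.35, and 1003 of them passed a doubling. Those that fell had a median of -0.97, and 484 of them lost at least 50% of their level. The genes that rose had a median of 74 counts in the control and 165 at 1 h, and the genes that fell had 405 and 187.5. Protein names were given for 5736 tested genes, of which 767 rose and 505 fell. When the control column was taken from replicate 3, the counts were 1189 higher and 448 lower, and scaling to library size alone gave 1374 and 564. That scaling shifted the median over all tested genes by 0.125 on the log2 scale. With the 1 h column taken from replicate 1, more genes were called lower than higher.

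**Figure D1:**
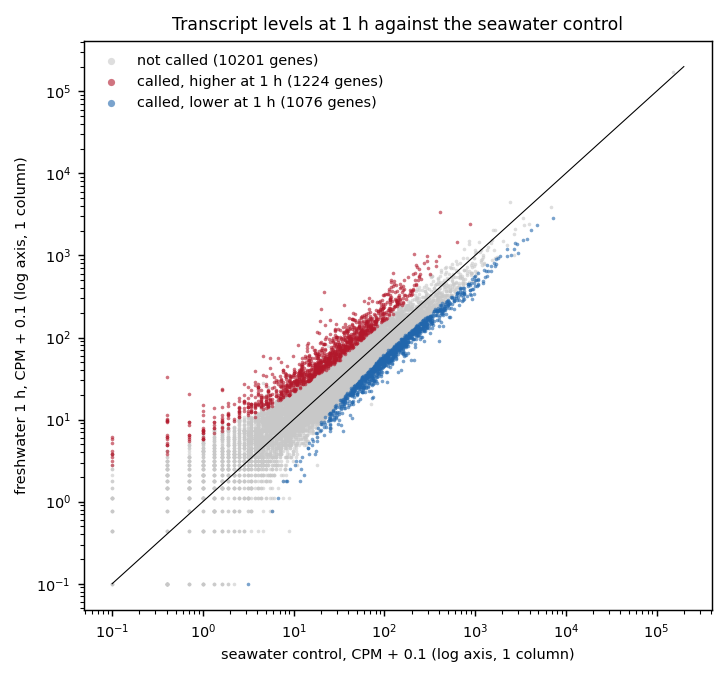
Each point is a gene, with its level in the seawater control on the horizontal axis and at 1 h in freshwater on the vertical axis, both as CPM plus 0.1 on log axes, 1 column each. The 1224 genes called higher lie above the diagonal at all levels, and the 1076 called lower lie below it mainly at high levels.

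In the columns used, the median difference fell from low to high levels. With genes split into 4 classes of equal size by their mean level in the other 14 columns, a split chosen after the values were seen, the median log2 fold change was 0.46, 0.17, -0.03 and -0.32 from the lowest class to the highest. Lower levels were called for 0.576% of the lowest class and 21.4% of the highest. The columns at 30 min showed the same order against seawater, from 0.55 to -0.42 in replicate 2 and from 0.41 to -0.38 in replicate 3. Smaller falls were seen in other columns, from 0.14 to -0.24 at 0 min and from 0.2 to -0.18 in replicate 2 at 4 h. At 8 h the values went from 0.08 to -0.18 in replicate 2 and from -0.01 to -0.08 in replicate 3. Replicate 1 at 15 min went from 0 to -0.01. All of these were set against the same control column. With replicate 3 as the control column the medians at 1 h were 0.14, 0.08, 0.07 and -0.14. The order was broken with the 1 h column from replicate 1, at 0.37, -0.45, -0.08 and -0.11, and with the mean of the dependent columns, at 0.35, -0.06, -0.02 and -0.19. The part of this trend in the gene groups below was not tested. Each list's median is therefore also given after subtracting from every gene the median of its level class, called the level-adjusted median.

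**Figure D2:**
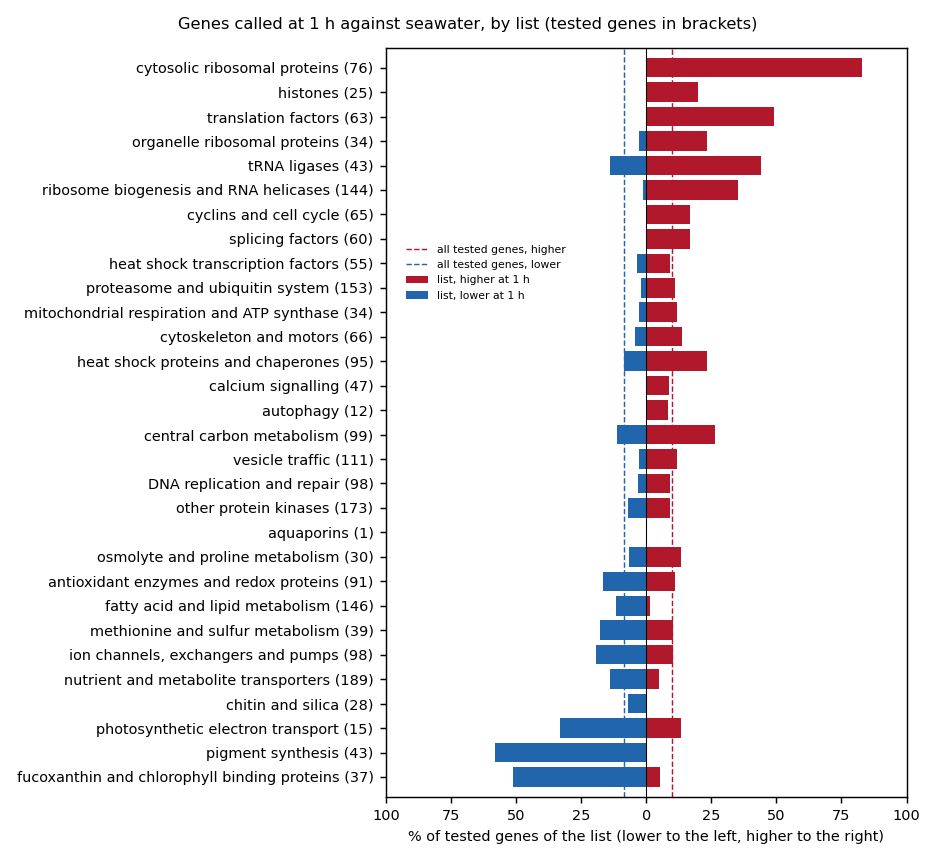
Bars give the percentage of tested genes in each of 30 gene lists that were called higher (right) or lower (left) at 1 h, ordered by the list's median log2 fold change, and dashed lines give the percentages over all tested genes. Cytosolic ribosomal proteins reach 82.9% higher, and pigment synthesis and the fucoxanthin and chlorophyll binding proteins stand at the lower end.

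Genes of the cytosolic ribosome rose together. Of 76 tested, 63 were called higher and none lower, with a median log2 fold change of 1.27 against 0.05 over all tested genes. All 76 had a log2 fold change above 0. Summed over the list, the level was 9510 CPM in the control, 10700 CPM at 0 min and 20800 CPM at 1 h. These are mostly abundant transcripts, 65 of them in the highest class of level, and their level-adjusted median was 1.53. Among large-subunit proteins 42 of 47 rose, and among small-subunit proteins 21 of 29. A gene for 60S ribosomal protein L17-1 (CCRYP_019944) went from 19.9 CPM in the control to 87.1 CPM at 1 h, or 2.13 on the log2 scale (SE 0.34, Benjamini-Hochberg adjusted p = 0.000334 in edgeR's quasi-likelihood test). A second gene of that name, CCRYP_004219, went from 47.1 to 165 CPM. Its level at 1 h equalled the 165 CPM of replicate 2 at 30 min. Outside the naming rule and picked after its values were seen, 40S ribosomal protein S5 (CCRYP_000534) rose from 126 to 429 CPM. Names of organelle type, such as 50S, belonged to 34 tested genes, with 8 higher, 1 lower, a median of 0.67 and a level-adjusted median of 0.58. Among them 50S ribosomal protein L24 (CCRYP_004497) rose from 8.76 to 30.5 CPM, and 50S ribosomal protein L9 (CCRYP_011931) fell from 169 to 87.4 CPM, a call that was lost with replicate 3 as the control column.

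Factors that start, extend and end translation were called in the higher direction only. Of 63 tested, 31 were higher and none lower, with a median log2 fold change of 0.81, and the level-adjusted median was 1.00. Subunits of initiation factor 3, the scaffold that holds the small ribosomal subunit for initiation, accounted for 9 higher genes of 12. A gene for a subunit of this factor (CCRYP_003257) went from 21.1 CPM in the control to 82.3 CPM at 1 h (log2 fold change 1.96, SE 0.33). Initiation factor 5A (CCRYP_010137), which helps the ribosome through difficult peptide bonds, went from 119 CPM in the control and 109 CPM at 0 min to 476 CPM at 1 h. The columns at 30 min held 509 and 452 CPM of it, so the level at 1 h lay between them. Elongation factors were higher for 8 of 15. The subgroups of lists, here and in the other paragraphs, were formed after the values were seen, as were the choices of Elongation factor 3 (CCRYP_006727), which rose from 294 to 976 CPM, and Elongation factor 1-alpha (CCRYP_004609), which brings tRNA to the ribosome and rose from 872 to 2450 CPM.

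The tRNA ligases, which load amino acids onto their tRNAs, were called in both directions. Of 43 tested, 19 rose (44.2%, against 9.79% of all tested genes) and 6 fell (14%, against 8.61%). Their median log2 fold change was 0.56 and their level-adjusted median 0.53. Where the name gave neither chloroplast nor mitochondrion, 16 of 35 rose and 2 fell, with a median of 0.79. Where it gave one of them, 3 of 8 rose and 4 fell, with a median of -0.67. The difference between these subgroups was not tested. Lysine--tRNA ligase (CCRYP_017501) went from 24.2 CPM in the control and 17.2 CPM at 0 min to 96.6 CPM at 1 h, or 2.00 on the log2 scale (SE 0.31, Benjamini-Hochberg adjusted p = 0.000249 in edgeR's quasi-likelihood test). No other column passed 59.4 CPM. Threonine--tRNA ligase of the plastid or mitochondrion (CCRYP_016599) fell from 473 to 228 CPM, and phenylalanine--tRNA ligase with the same location in its name (CCRYP_008123) fell from 226 to 106 CPM. With replicate 3 as the control column, 20 ligases rose and 1 fell, and the call for the threonine ligase was lost.

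Genes for making ribosomes, RNA helicases included, gave 51 higher and 2 lower of 144 tested, with a median log2 fold change of 0.55 and a level-adjusted median of 0.66. The helicase DDX47 (CCRYP_005080), which takes part in ribosomal RNA processing in other eukaryotes, rose from 12.4 to 56.2 CPM (log2 fold change 2.18, SE 0.40). A ribosomal RNA small subunit methyltransferase (CCRYP_005802) fell from 111 to 63.4 CPM, and its call was lost in several alternatives, library size scaling among them. RIO1 (CCRYP_018836), an atypical kinase of small-subunit maturation in yeast, rose from 7.25 to 31.2 CPM. Among 60 splicing factors, 10 rose (16.7%) and none fell, with a median of 0.44 and a level-adjusted median of 0.42.

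**Figure D3:**
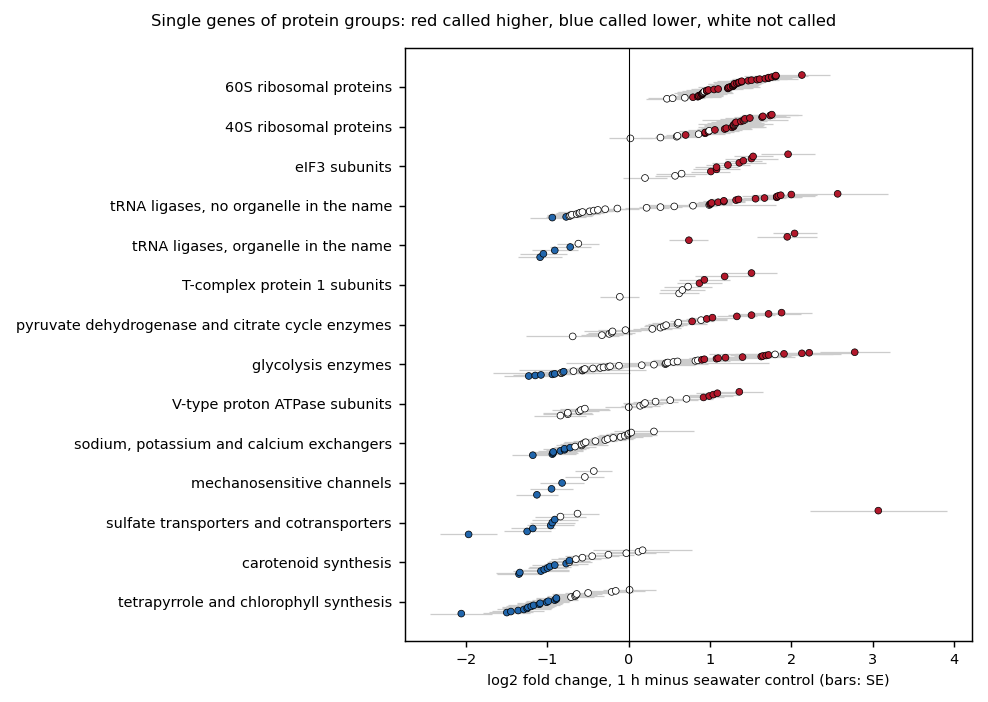
Each point is a gene of a protein group, placed at its log2 fold change at 1 h minus the seawater control, with bars for the SE, red for called higher, blue for called lower and white for not called. Points of the ribosomal subunits lie to the right of 0, points of chlorophyll and carotenoid synthesis lie almost all to the left, and glycolysis enzymes and tRNA ligases spread over both sides.

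Light-harvesting proteins were called mainly in the lower direction. Of 37 tested genes for fucoxanthin and chlorophyll binding proteins, 19 fell and 2 rose, with a median log2 fold change of -0.91 and a level-adjusted median of -0.68. Their summed level was 14600 CPM in the control, 11400 CPM at 0 min and 6880 CPM at 1 h. A fucoxanthin-chlorophyll a-c binding protein (CCRYP_000781) went from 934 CPM in the control and 642 CPM at 0 min to 295 CPM at 1 h. The log2 fold change came to -1.66 (SE 0.41, Benjamini-Hochberg adjusted p = 0.0112 in edgeR's quasi-likelihood test). At 30 min it stood at 254 and 479 CPM, on both sides of the 1 h value. Another gene of that name, CCRYP_012283, fell from 106 to 37.9 CPM, lower than in any other column. Against this direction, CCRYP_010216 of the same family rose from 5.13 to 22.0 CPM and a chlorophyll a-b binding protein (CCRYP_002133) from 15.4 to 34.2 CPM, and both calls were lost with replicate 3 as the control column. With that column 13 antenna genes fell and 1 rose.

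Pigment synthesis was called in the lower direction only. Of 43 tested genes, 25 fell and none rose, with a median log2 fold change of -0.89 and a level-adjusted median of -0.62. Their summed level went from 10300 CPM in the control through 7480 CPM at 0 min to 5460 CPM at 1 h. In the tetrapyrrole and chlorophyll branch 16 of 24 fell, and in the carotenoid branch 9 of 17. Uroporphyrinogen-III synthase (CCRYP_005457), which closes the tetrapyrrole ring, went from 43.8 CPM in the control to 10.5 CPM at 1 h, the lowest of its 16 columns. The log2 fold change came to -2.06 (SE 0.38, Benjamini-Hochberg adjusted p = 0.00102 in edgeR's quasi-likelihood test). The next enzyme of the pathway, uroporphyrinogen decarboxylase (CCRYP_009190), fell from 181 to 64.0 CPM. Picked after their values were seen, a protochlorophyllide reductase (CCRYP_012706), which makes chlorophyllide, fell from 758 to 295 CPM, and the ChlD subunit of magnesium chelatase (CCRYP_005476), which puts magnesium into the ring, from 1010 to 424 CPM. In the xanthophyll cycle, also picked in this way, violaxanthin de-epoxidase (CCRYP_009294) fell from 74.9 to 29.5 CPM and zeaxanthin epoxidase (CCRYP_020129) from 181 to 88.1 CPM. With replicate 3 as the control column, 15 of the 43 fell.

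Photosynthetic electron transport had 5 lower genes of 15 (33.3%, against 8.61% of all tested genes) and 2 higher (13.3%, against 9.79%). Its median log2 fold change was -0.56 and its level-adjusted median -0.24. The iron-sulfur subunit of the cytochrome b6-f complex (CCRYP_001258), which passes electrons between the photosystems, fell from 74.9 to 31.8 CPM. Flavodoxin (CCRYP_012869), an electron carrier that stands in for ferredoxin when iron is scarce, fell from 87.0 to 41.3 CPM, a call lost with replicate 3 as the control column. A ferredoxin--NADP reductase of root type (CCRYP_012235) rose from 22.0 to 43.4 CPM, and its call was lost with DESeq2 and without several columns of 15 min, 30 min, 8 h or 10 h. With replicate 3 as the control column, 1 of the 15 was lower.

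Ion channels, exchangers and pumps gave 19 lower genes of 98 (19.4%, against 8.61% of all tested genes). Of these 98 genes, 56 were in the highest class of level, in which 21.4% of genes were called lower. The 10 higher genes (10.2%) were near the 9.79% over all tested genes. The list had a median log2 fold change of -0.35 and a level-adjusted median of -0.21. Exchangers of sodium, potassium and calcium had 8 of 23 lower and none higher, and mechanosensitive channels, which open when a membrane is stretched, 3 of 5 lower. Potassium channels were lower for 2 of 14. Picked after their values were seen, mechanosensitive ion channel protein 9 (CCRYP_014152) fell from 287 to 131 CPM and sodium/hydrogen exchanger 7 (CCRYP_003974) from 143 to 63.0 CPM. A sodium-dependent serotonin transporter by name (CCRYP_006049) went from 318 CPM in the control to 115 CPM at 1 h, while the columns at 15 min held 605 and 535 CPM. These lower counts depended on the control column and on the scaling. Replicate 3 as the control column gave 5 lower genes and 10 higher, and library size scaling gave 8 lower and 10 higher.

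Pumps that use ATP made up much of the higher side. A probable proton ATPase (CCRYP_019860), a pump that charges the membrane, went from 125 CPM in the control and 113 CPM at 0 min to 609 CPM at 1 h. The log2 fold change came to 2.28 (SE 0.26, Benjamini-Hochberg adjusted p = 3.13e-05 in edgeR's quasi-likelihood test). No other column passed 338 CPM. The V-type proton ATPase, which acidifies vacuoles, had 5 higher subunits of 18 and none lower, with a median of 0.19. Subunit H (CCRYP_011095), picked after its values were seen, rose from 26.3 to 67.4 CPM. Calcium-transporting ATPases were higher for 2 of 8 and lower for 1, with a median of -0.1. A pair of plasma membrane calcium-transporting ATPases picked in the same way, CCRYP_003544 and CCRYP_014240, rose from 160 to 380 CPM and from 367 to 855 CPM.

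A gene named as a sodium/sulfate cotransporter (CCRYP_016753) went from 406 CPM in the control and 895 CPM at 0 min to 3410 CPM at 1 h, with 1990 to 2070 CPM at 30 min and 103 to 658 CPM from 4 h on. Its log2 fold change of 3.07 had an SE of 0.84 and a Benjamini-Hochberg adjusted p of 0.0372 in edgeR's quasi-likelihood test. The call was lost with limma-voom and without a column of 30 min, 2 h or 4 h. Of the 9 genes for sulfate transporters and sodium/sulfate cotransporters it was the one that rose, and 6 others fell. Among these a sulfate transporter named YbaR (CCRYP_005475) fell from 74.3 to 19.0 CPM, the lowest of its 16 columns.

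Over 189 transporters of nutrients and metabolites, 26 fell (13.8%, against 8.61% of all tested genes) and 9 rose (4.76%, against 9.79%). Their median log2 fold change was -0.36 and their level-adjusted median -0.20. Of the 189, 77 were in the highest class of level, in which 21.4% of genes were called lower. Metal transporter Nramp2 (CCRYP_006566), of a family that carries iron and manganese, went from 71.9 CPM in the control and 61.8 CPM at 0 min to 22.0 CPM at 1 h (log2 fold change -1.70, SE 0.29). ABC transporter G family member 36 (CCRYP_002341) fell from 72.8 to 18.3 CPM. A mitochondrial dicarboxylate/tricarboxylate transporter (CCRYP_007064) rose from 3.62 to 26.1 CPM. Sugar transporters fell for 4 of 11 with none higher, and nitrate and ammonium transporters rose for 2 of 10 with none lower. With replicate 3 as the control column, 13 of the 189 fell and 9 rose.

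Osmolyte genes were called in both directions, at shares near those over all tested genes. Of 30 tested genes for osmolyte and proline metabolism, 4 rose (13.3%, against 9.79%) and 2 fell (6.67%, against 8.61%). Their median log2 fold change was -0.12, which became 0.01 with library size scaling, and their level-adjusted median was 0.02. Inositol oxygenase (CCRYP_016095), which breaks down the osmolyte myo-inositol, rose from 8.45 CPM in the control to 28.8 CPM at 1 h. At 0 min it already stood at 27.4 CPM, and the log2 fold change between 0 min and 1 h was 0.07. A transporter of glycine betaine, proline, choline and ectoine (CCRYP_014122) fell from 832 to 448 CPM, and sarcosine/dimethylglycine N-methyltransferase (CCRYP_004951), an enzyme of betaine synthesis, from 71.9 to 41.7 CPM. Both calls were lost with library size scaling and with replicate 3 as the control column. A single gene was named as an aquaporin and it was not called, with 5.13 CPM in the control and 4.74 CPM at 1 h.

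Heat shock proteins and chaperones gave 22 higher genes of 95 (23.2%, against 9.79% of all tested genes). The 8 lower genes (8.42%) were near the 8.61% over all tested genes. The list had a median log2 fold change of 0.34 and a level-adjusted median of 0.30. Chaperones of the Hsp70 and Hsp90 families were higher for 7 of 16 and lower for 1. Heat shock cognate 70 kDa protein 1 (CCRYP_020418) went from 29.0 CPM in the control and 27.4 CPM at 0 min to 146 CPM at 1 h. The log2 fold change came to 2.33 (SE 0.32, Benjamini-Hochberg adjusted p = 7.74e-05 in edgeR's quasi-likelihood test), and no other column passed 124 CPM. Picked after its values were seen, heat shock protein 90-3 (CCRYP_020355) rose from 272 to 817 CPM. The mitochondrial 10 kDa chaperonin (CCRYP_004570), the lid of the organelle's folding chamber, rose from 17.8 to 118 CPM, within the 135 and 108 CPM at 30 min. Subunits of T-complex protein 1, the cytosolic chaperonin that folds actin and tubulin, were higher for 4 of 8. Luminal-binding protein 5 (CCRYP_014952), an Hsp70 of the endoplasmic reticulum, fell from 39.6 to 14.2 CPM. J-domain proteins, partners of Hsp70, were higher for 6 of 46 and lower for 3, against 9.79% and 8.61% of all tested genes.

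Heat shock transcription factors, a large family in diatoms, rose at a share near that over all tested genes. Of 55 tested, 5 rose (9.09%, against 9.79%) and 2 fell (3.64%, against 8.61%), with a median log2 fold change of 0.40 and a level-adjusted median of 0.48. Heat stress transcription factor A-5 (CCRYP_020449) rose from 4.23 to 23.0 CPM. Heat stress transcription factor A-3 (CCRYP_006320) fell from 42.9 to 19.6 CPM, while the columns at 15 min held 69.5 and 60.1 CPM. Its call was lost with library size scaling and with replicate 3 as the control column. Of 6 tested genes of that name, 1 rose and 1 fell. Against 0 min none of the 55 rose and 2 fell.

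In central carbon metabolism, 26 of 99 genes rose (26.3%, against 9.79% of all tested genes) and 11 fell (11.1%, against 8.61%). The median log2 fold change was 0.29 and the level-adjusted median 0.28. Glyceraldehyde-3-phosphate dehydrogenase (CCRYP_005174), an enzyme of glycolysis and carbon fixation, went from 35.9 CPM in the control and 25.5 CPM at 0 min to 246 CPM at 1 h. The log2 fold change came to 2.78 (SE 0.43, Benjamini-Hochberg adjusted p = 0.000766 in edgeR's quasi-likelihood test), and no other column passed 181 CPM. Pyruvate kinase (CCRYP_018508), the last step of glycolysis, rose from 24.8 to 109 CPM. Pyruvate dehydrogenase and citrate cycle enzymes had 7 higher genes of 20 and none lower, with a median of 0.53. Aconitate hydratase B (CCRYP_010561) of that cycle rose from 88.8 to 224 CPM.

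Genes that shared an enzyme name did not always share a direction. Glycolysis enzymes included 14 higher and 6 lower genes of 45, against 9.79% and 8.61% of all tested genes. A fructose-bisphosphate aldolase (CCRYP_007283) fell from 885 to 378 CPM, while another gene of that name (CCRYP_001269, picked after its values were seen) rose from 127 to 238 CPM. Of 8 genes named as 2,3-bisphosphoglycerate-dependent phosphoglycerate mutase, 3 rose and 2 fell, and CCRYP_001534 among them fell from 198 to 89.1 CPM. Pyruvate carboxylase, picked likewise, had a gene that rose from 368 to 750 CPM (CCRYP_010390) and a gene that fell from 1000 to 557 CPM (CCRYP_010356). Over all protein names, 87 had at least 2 called genes. In 25 of these all called genes rose, in 36 all fell and in 26 they went both ways.

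Antioxidant enzymes and redox proteins did not share a direction. Of 91 tested, 15 fell (16.5%, against 8.61% of all tested genes) and 10 rose (11%, against 9.79%). Their median log2 fold change was -0.14 and their level-adjusted median -0.12. Mitochondrial manganese superoxide dismutase (CCRYP_003411), which turns superoxide into hydrogen peroxide, went from 969 CPM in the control and 685 CPM at 0 min to 341 CPM at 1 h. The log2 fold change came to -1.51 (SE 0.31, Benjamini-Hochberg adjusted p = 0.00244 in edgeR's quasi-likelihood test), and the columns at 30 min stood at 261 and 433 CPM. Glutaredoxin (CCRYP_018987), which reduces disulfides with glutathione, fell from 116 to 44.0 CPM. Chloroplast peroxiredoxin Q (CCRYP_016723) rose from 13.3 to 60 CPM and cytochrome c peroxidase (CCRYP_005275) from 4.53 to 19.0 CPM.

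Most genes of cell division were not called. Cyclins and cell cycle genes had 11 of 65 higher (16.9%, against 9.79% of all tested genes) and none lower, with a median log2 fold change of 0.50 and a level-adjusted median of 0.47. Cyclin-dependent kinase 1 (CCRYP_002502), which drives entry into mitosis, went from 13.3 CPM in the control and 21.5 CPM at 0 min to 56.6 CPM at 1 h (log2 fold change 2.09, SE 0.36). Histones had 5 of 25 higher (20%) and none lower, with a median of 1.16 and a level-adjusted median of 0.81. Histone H3 (CCRYP_012985) rose from 12.4 to 48.1 CPM, with 62.6 CPM in replicate 2 at 30 min. Actins and tubulins, which form the cytoskeleton, were higher for 3 of 4. Actin (CCRYP_000985) went from 107 CPM in the control to 341 CPM at 1 h, above its other columns. DNA replication and repair had 9 higher (9.18%) and 3 lower genes of 98, a higher share near the 9.79% over all tested genes, and a level-adjusted median of 0.14.

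Signalling genes were called higher at shares near the 9.79% over all tested genes. Calcium signalling had 4 higher (8.51%) and none lower of 47, with a median log2 fold change of 0.34 and a level-adjusted median of 0.35. Calmodulin (CCRYP_001963), the main calcium sensor, rose from 95.4 to 228 CPM. Other protein kinases had 16 higher (9.25%) and 12 lower (6.94%, against 8.61%) of 173, with a level-adjusted median of 0.11. The kinase named PAK 3 (CCRYP_015460) had the highest log2 fold change of the genes with a protein name and at least 50 counts. It went from 1.51 CPM in the control and 8.31 CPM at 0 min to 22.7 CPM at 1 h, or 3.88 on the log2 scale (SE 0.63, Benjamini-Hochberg adjusted p = 0.000341 in edgeR's quasi-likelihood test). The fold change rests on 5 counts in the control and 67 at 1 h. The columns at 30 min stood at 23.5 and 18.0 CPM.

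Other named genes with large changes belonged to no list. A dimethylaniline monooxygenase (CCRYP_005617), of the flavin monooxygenases, rose from 3.62 to 39 CPM, and ATP phosphoribosyltransferase (CCRYP_000844), the first enzyme of histidine synthesis, from 24.8 to 164 CPM. Fumarylacetoacetase (CCRYP_019375), the last enzyme of tyrosine breakdown, fell from 16.9 to 3.73 CPM. Among genes without a protein name, CCRYP_018166 rose from 21.7 to 355 CPM and CCRYP_017721 fell from 400 to 91.8 CPM. Counts were 0 in the control for 9 genes called higher. The highest of these at 1 h, CCRYP_002229, had 6.10 CPM at 1 h and 1.85 CPM at 0 min.

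Set against 0 min instead of the seawater control, 685 genes differed (5.48%), with 575 higher (4.6%) and 110 lower (0.88%) at 1 h (edgeR's quasi-likelihood test, Benjamini-Hochberg adjusted). This comparison shares the 1 h column with the first, so values are given side by side only. At 0 min the cells had just been transferred, and the column is single too. Against 0 min, 32 cytosolic ribosomal protein genes, 23 translation factors and 33 ribosome biogenesis genes were higher and none of these lists had a lower gene. Pigment synthesis had 2 lower genes and the antenna proteins 1, compared with 25 and 19 against seawater. The median log2 fold changes against 0 min were 0.97 for cytosolic ribosomal proteins, -0.43 for pigment synthesis and -0.65 for the antenna. Central carbon metabolism had 18 higher and 1 lower against 0 min. Autophagy-related protein 8 (CCRYP_016027), which builds autophagosomes, stood at 56.2 CPM in the control, 120 CPM at 0 min and 124 CPM at 1 h, a log2 fold change of 1.14 against seawater and 0.04 against 0 min. The mitochondrial alternative oxidase (CCRYP_014055), which bypasses part of the respiratory chain, likewise stood at 53.7, 114 and 122 CPM.

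**Figure D4:**
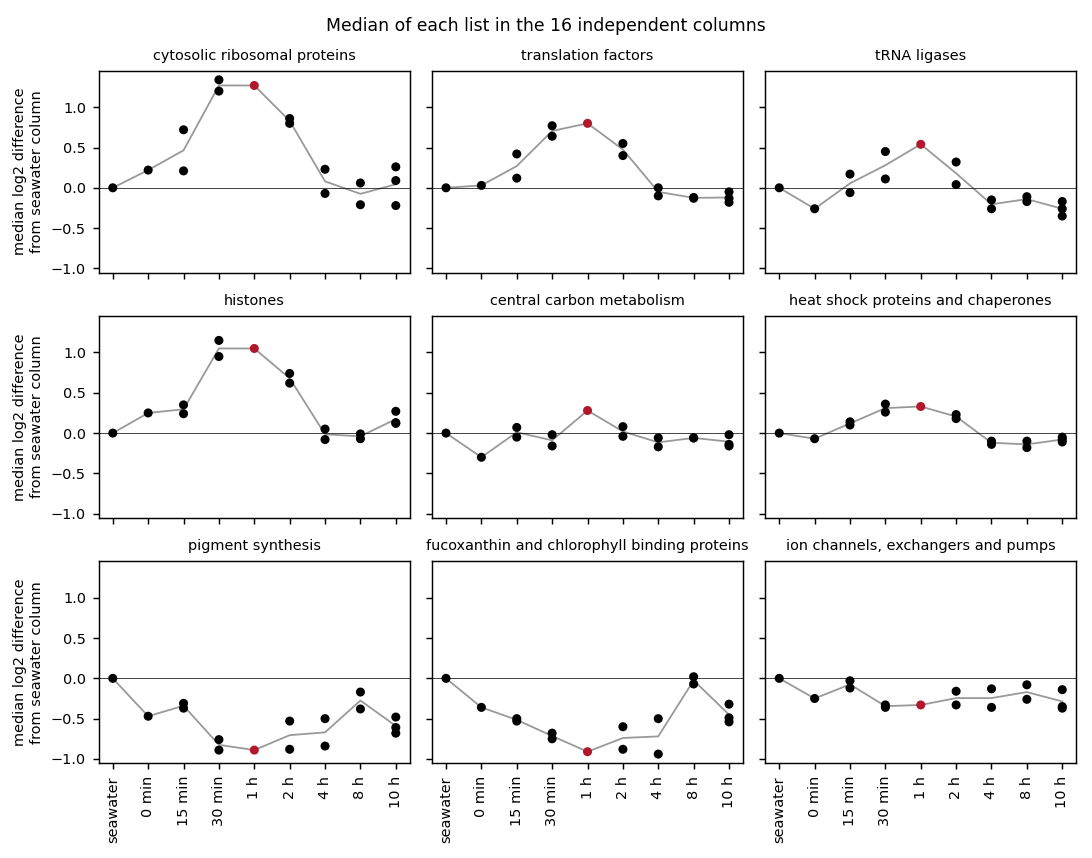
For 9 gene lists, points give the median log2 difference of the list's genes from the seawater column in each of the 16 independent columns, with 1 h in red, and the line joins the means per time. Cytosolic ribosomal proteins stand at 1.27 at 1 h and at 1.34 and 1.20 at 30 min, and return to between -0.22 and 0.26 from 4 h on.

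Against the mean of 30 min and 2 h, the neighbouring times with 2 independent columns each, 12 genes were called (0.096%), 11 higher (0.088%) and 1 lower (0.008%) (edgeR's quasi-likelihood test, Benjamini-Hochberg adjusted). At an unadjusted p below 0.05 there were 1054 genes, and DESeq2 called 39. Among the lists the median log2 difference from the neighbours was 0.12 for cytosolic ribosomal proteins, 0.31 for translation factors, -0.21 for the antenna proteins and -0.17 for pigment synthesis. The called genes with a name were Lysine--tRNA ligase (CCRYP_017501), the proton ATPase (CCRYP_019860), aconitate hydratase B (CCRYP_010561), Dapdiamide A synthase (CCRYP_018173), Pumilio homolog 3 (CCRYP_007542), a cytoplasmic phosphoglucomutase (CCRYP_013320) and amidophosphoribosyltransferase (CCRYP_006234). Lysine--tRNA ligase stood 1.31 above the neighbours on the log2 scale (Benjamini-Hochberg adjusted p = 0.0106 in edgeR's quasi-likelihood test), at 96.6 CPM against 59.4 and 40.8 CPM at 30 min and 28 and 31.4 CPM at 2 h. Dapdiamide A synthase, named after a ligase of bacterial antibiotic synthesis, stood at 200 CPM against 119 and 131 CPM at 30 min and 66.6 and 82.4 CPM at 2 h. For both, 1 h was the highest of the 16 columns. Without replicate 1 at 2 h the count fell to 3, and without a replicate at 4 h it was 37.

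**Figure D5:**
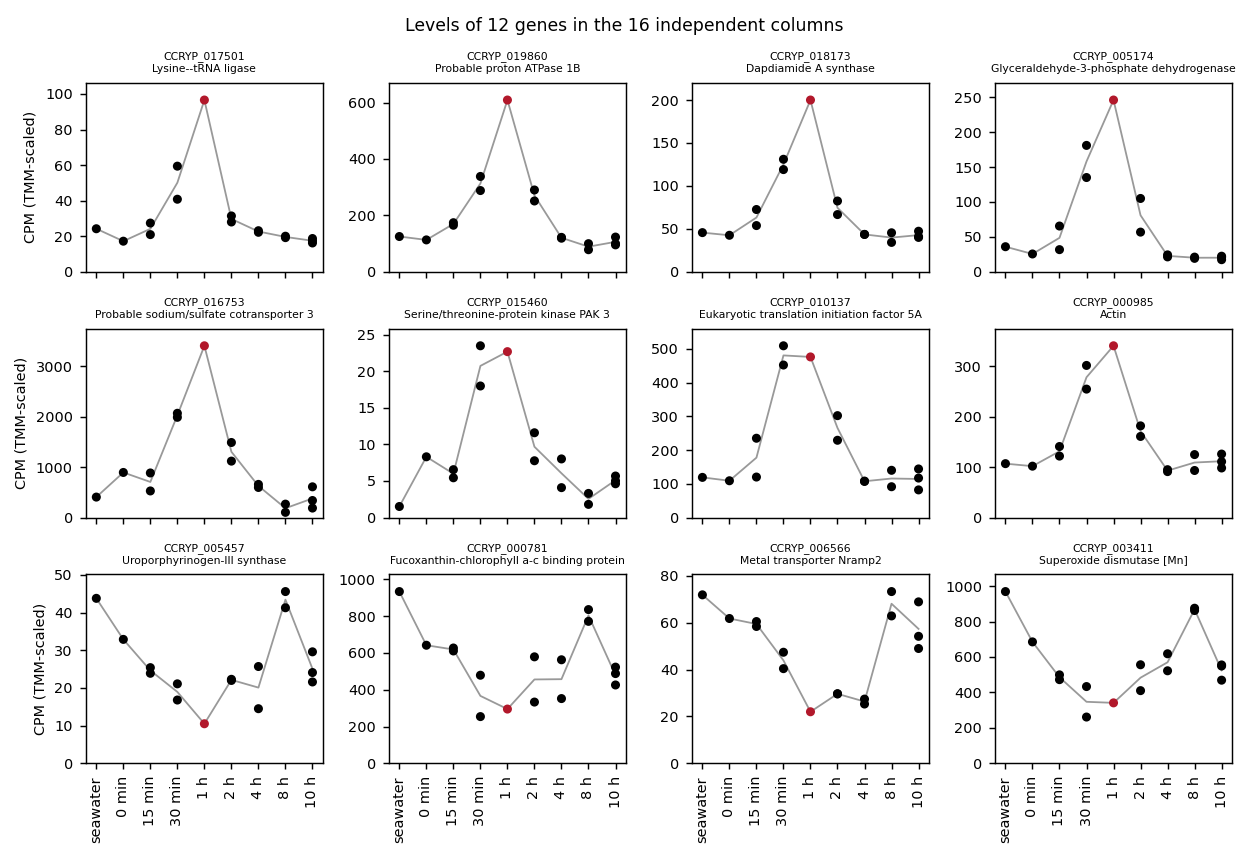
Points give the level of 12 genes in each of the 16 independent columns as CPM on a linear axis from 0, with 1 h in red, and lines join the means per time. Lysine--tRNA ligase, the proton ATPase, Dapdiamide A synthase and glyceraldehyde-3-phosphate dehydrogenase peak at 1 h, and uroporphyrinogen-III synthase and Nramp2 have their lowest point there.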

How the data were processed

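RNA-seq counts per gene were deposited by the authors in 1 table of 27 columns and 21250 genes, of which 5810 (27.3%) carry a protein name. Per the submitters' processing notes, STAR 2.7.3a, HTSeq 0.11.3 and edgeR were used; no build, annotation or strandedness is stated there, and these are not given in sources used here. The authors' deposited table of log2 fold change and adjusted p-value columns, for times in freshwater against 0 min, served only for a check of sign. Rows that name no gene were left out; reads with several alignments were 28.3% of the control column and 27.3% of the 1 h column. All count columns were matched to samples by name, with 0 unmatched.

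Columns taken as shifted or scaled copies or as means of others were dropped, leaving 16. Genes were kept by edgeR's filterByExpr (minimum count 10, minimum total 15), leaving 12501; 7021 genes were 0 in every column. Counts were fitted with TMM scaling and edgeR's robust quasi-likelihood fit (edgeR 4.0.16, limma 3.58.1, R 4.3.3) with 1 term per group, which left 7 residual degrees of freedom and a biological coefficient of variation of 14.2%. A prior count of 2 was used for the log2 levels of single columns, from which the median differences from the seawater column at each time were taken. The fold changes of genes come from the fit and were not shrunk with that prior count, so those of genes with few counts can be large. CCRYP_013826, with 1 count in the control and 98 at 1 h, has a log2 fold change of 6.63. A gene is called at an adjusted p below 0.05, and each SE was worked out from the F statistic. The method was run on simulated data in which every column, the single ones included, was drawn with the fitted spread. That run cannot test whether the single columns vary like the others. DESeq2 1.42.0 and limma-voom were alternatives. Gene totals per column ran from 2809130 to 6889349 counts.

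The comparison, the 30 gene lists and the tests were chosen with earlier results of these data known. Lists were matched on the protein name before any bracketed synonym. The named genes are, among called genes with at least 50 counts in the higher column, the 10 highest and 10 lowest with a name, the 3 highest and 3 lowest without one, up to 2 of each direction per list, up to 3 with 0 counts in the control and up to 5 of each direction against the neighbouring times; every other gene in the text was picked after its values were seen. None of the identifiers matched (0 of 14109 RefSeq genes), so no coordinates or sequences are given.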

Additional observations from a re-analysis of the deposited data

How the results depend on the processing

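The count of genes called against seawater, 2300, stayed within 1.5 times of itself under other scalings, tests and single columns, and moved to 7938 with all 27 columns, where copies count as replicates. Of those 2300 genes, 1478 kept their call with replicate 3 as the control column, 1783 with library size scaling and 1834 with DESeq2, which gave 57 no adjusted p. Taking the 1 h column from replicate 1 kept 1740 and gave 10 the opposite sign. Leaving out 1 column gave 1999 to 2655 calls. No paired design is stated, and the single columns of 1 h and seawater have no deviations to correlate, so replicate numbers were treated as shared numbers only; with the replicate block 986 genes were called (563 higher and 423 lower), 948 of them among the 2300. Under the replicate block 25 cytosolic ribosomal protein genes and 20 translation factors were higher and 16 pigment genes, 19 antenna genes and 7 ion transport genes were lower. Against 0 min the 685 calls became 1059 without a filter on low counts, 6452 with all 27 columns, 1908 with replicate 1 at 1 h and 957 with the replicate block, and 582 to 854 with 1 column left out. Against the neighbouring times the 12 calls became 34 with DESeq2 size factors, 21 with library size scaling, 101 without a filter, 39 with DESeq2, 25 with limma-voom, 83 with means of the dependent columns, 4393 with all 27 columns, 1506 and 52 with replicates 1 and 3 at 1 h, 5 with the replicate block, and 3 to 37 with 1 column left out. The cause of these shifts was not tested, other than that all 27 columns include the copies. Of 116 named genes 65 kept their call under every alternative that gave an adjusted p, and none changed sign. The control and 1 h columns have no replicate spread of their own, which limits every value here.

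Against 0 min, the authors' deposited table marks 5481 genes, of which 5317 could be compared with a refit of all 27 columns, and all 5317 had the opposite sign. No value of that table is used elsewhere.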

Other observations

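Several housekeeping lists had shares of higher genes near the 9.79% over all tested genes. Proteasome and ubiquitin genes rose for 17 of 153 (11.1%) and fell for 3, with a median log2 fold change of 0.38 and a level-adjusted median of 0.46, and among 38 proteasome subunits 6 rose and none fell. Vesicle traffic genes rose for 13 of 111 (11.7%) and fell for 3, with a level-adjusted median of 0.22; vesicle-associated protein 1-3 (CCRYP_016324) rose from 11.5 to 48.1 CPM and a subunit of the trafficking protein particle complex (CCRYP_002016) fell from 73.1 to 30.2 CPM. Mitochondrial respiration had 4 higher (11.8%) and 1 lower of 34, with a level-adjusted median of 0.44.

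Most genes of fatty acid and lipid metabolism were not called. Of 146 tested, 17 were lower (11.6%, against 8.61% of all tested genes) and 2 higher (1.37%, against 9.79%), with a median of -0.25 and a level-adjusted median of -0.20. Lipase 4 (CCRYP_020604) fell from 133 to 54.5 CPM and a patatin-like phospholipase (CCRYP_019610) from 63.4 to 24.7 CPM. With replicate 3 as the control column 10 were lower and 3 higher. In methionine and sulfur metabolism, 17 of 39 tested genes were in the highest class of level, in which 21.4% of genes were called lower. The list had 7 lower genes (17.9%, against 8.61%) and 4 higher (10.3%, near the 9.79% over all tested genes). Its level-adjusted median was -0.16, and fewer of its genes were lower with replicate 3 as the control column. L-methionine gamma-lyase (CCRYP_010227), which splits methionine, rose from 17.2 to 64.4 CPM. Chitin and silica genes had 2 lower of 28 (7.14%, near the 8.61% over all tested genes) and a level-adjusted median of -0.14. Both lower genes were chitinases, and both calls were lost with library size scaling.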
